A study of Homo sapiens with 16 samples.

Results

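The mitochondrial genome encodes 7 subunits of respiratory complex I, in the genes MT-ND1, MT-ND2, MT-ND3, MT-ND4L, MT-ND4, MT-ND5 and MT-ND6. These genes were examined for γ-tubulin ChIP-seq peaks in MCF10A cells, a line of human breast epithelium, and in MCF10A cells stably expressing γTubulin shRNA under Zeocin selection (γTubulinsh-MCF10A). Both populations were arrested by a double thymidine block and harvested 1 h or 2 h after release, as they passed through S-phase. Each of the 4 conditions had 2 γ-tubulin ChIP libraries and 2 whole cell extract controls, 16 libraries in all, and a condition is represented by a single deposited peak list that pools its ChIP libraries. A chromosome M peak was counted when it shared at least 1 base with a complex I gene. There were 13 such peaks among the 29 peaks on mitochondrial DNA (mtDNA) and the 2962 peaks of the 4 lists. They were 4 of 8 mtDNA peaks in the 1 h γTubulinsh-MCF10A list, 7 of 16 in the 2 h MCF10A list and 2 of 5 in the 2 h γTubulinsh-MCF10A list. The MCF10A list at 1 h held 1035 peaks, and 0 of them lay on mtDNA. With a single pooled list per condition, no value below has a replicate error and no difference between conditions was tested. The lists do not show how much γ-tubulin protein remained in the shRNA cells.

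Complex I is the first enzyme of the respiratory chain. It passes electrons from NADH to ubiquinone and pumps protons across the inner mitochondrial membrane. All subunits encoded in mtDNA sit in its membrane arm, where the products of MT-ND2, MT-ND4 and MT-ND5 resemble antiporters and take part in proton pumping, and where MT-ND1 and MT-ND3 lie close to the site at which ubiquinone is reduced. The genes are transcribed as parts of long transcripts that run around the circular molecule, and MT-ND6 alone of the group is read from the other strand, so that its end meets the end of MT-ND5. γ-Tubulin is best known for nucleating microtubules at centrosomes, and the study asked where it lies on DNA in S-phase.

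Positions follow the mitochondrial sequence of Ensembl that the authors added to hg19, counted from 1. On chromosome M, MT-ND1 lies from 3307 to 4262, MT-ND2 from 4470 to 5511, MT-ND3 from 10059 to 10404, MT-ND4L from 10470 to 10766, MT-ND4 from 10760 to 12137, MT-ND5 from 12337 to 14148 and MT-ND6 from 14149 to 14673. They hold no introns, and MT-ND4L and MT-ND4 share 7 bases. Together they span 6349 bases, which is 41.3% of the 15358 bases in the 37 genes of mtDNA. In the 2 h MCF10A list, 3976 of these bases (62.6%) lay under peaks, next to 63.3% of the bases of all mtDNA genes. In γTubulinsh-MCF10A cells, 816 bases (12.9%) did so at 1 h, next to 8.34% for all mtDNA genes, and 290 bases (4.57%) at 2 h, next to 3.25%. The 1 h MCF10A list covered 0 of 6349 bases, and 0% of the bases, genes and gene summits of mtDNA as a whole. The complex I genes as a group were thus covered about as much as mtDNA genes in general at 2 h in MCF10A cells.

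**Figure D1:**
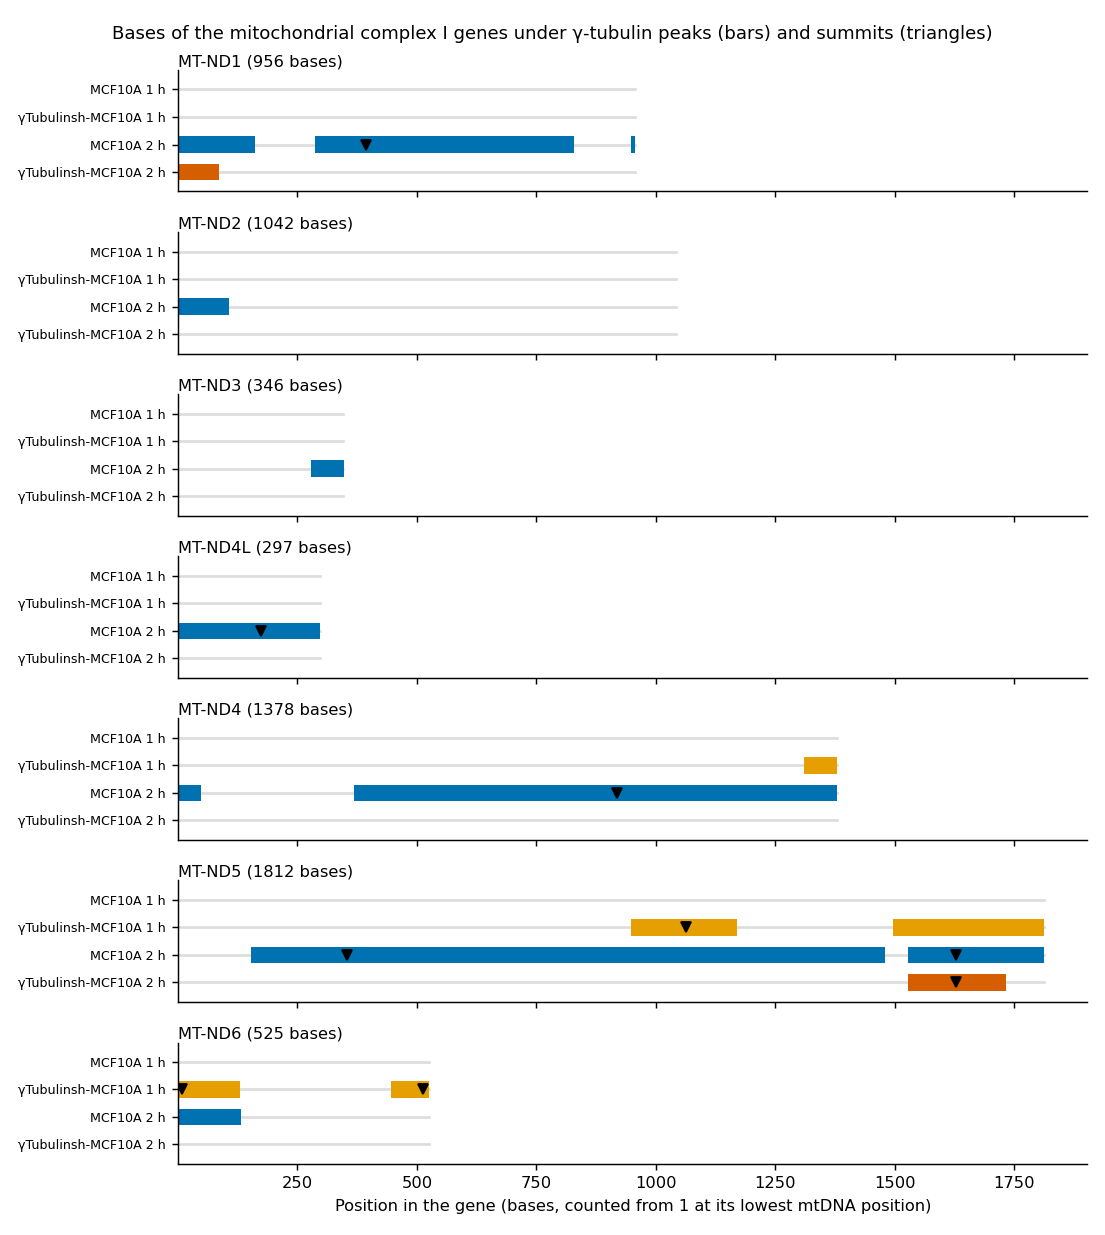
Bases of the 7 complex I genes under peaks (coloured bars) and peak summits (black triangles) in the 4 lists, with the position in each gene in bases from its lowest mtDNA position and grey lines for the whole gene. MT-ND4L is under a peak along all 297 bases in the 2 h MCF10A list, whereas the other 3 lists hold no peak in it, and bases near the end of MT-ND5 are under a peak in each list with mtDNA peaks.

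All 7 genes were met by a peak in the 2 h MCF10A list, in which 70.3% of the 37 mtDNA genes were. Of the 37 genes, 22 are short tRNA genes with 1504 bases together, against 6349 bases in the 7 complex I genes. A longer gene has more room for peaks and summits, so these counts of genes do not show an excess in complex I. In γTubulinsh-MCF10A cells, 3 of the 7 were met at 1 h (MT-ND4, MT-ND5 and MT-ND6), with 27.0% of all mtDNA genes, and 2 at 2 h (MT-ND1 and MT-ND5), with 10.8%. A peak can reach into a gene from its neighbour, so the summits, the points of highest signal, were counted apart. Of the 7 genes, 4 held a summit in the 2 h MCF10A list (27.0% of all mtDNA genes), namely MT-ND1, MT-ND4L, MT-ND4 and MT-ND5. MT-ND5 and MT-ND6 held the summits in the 1 h γTubulinsh-MCF10A list (13.5% of all mtDNA genes), and MT-ND5 held the only complex I summit of these cells at 2 h (8.11%). MT-ND2 and MT-ND3 held no summit in any list.

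MT-ND5, the longest of the genes with 1812 bases, was the one member met in all 3 lists with mtDNA peaks. In the 2 h MCF10A list, 1612 of its bases (89.0%) lay under peaks, in a stretch from 12489 to 13815 and another from 13864 to the end of the gene. Its first 152 bases and 48 bases between the stretches were free of peaks. In the 1 h γTubulinsh-MCF10A list, 539 bases (29.7%) were covered, from 13284 to 13506 and from 13833 to the end. The same cells at 2 h had 205 bases (11.3%) covered, from 13865 to 14069. Those 205 bases were the only bases of any complex I gene under a peak in each of the 3 lists, and they ended 79 bases before the end of MT-ND5. Outside genes, the 3 lists also shared bases. The 2 h γTubulinsh-MCF10A peaks from 16068 to 16252 and from 16348 to 16496 each lay within peaks of both other lists.

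The peak around the shared bases of MT-ND5 ran across the junction of MT-ND5 and MT-ND6 in 2 of the lists, from 13833 to 14277 in the 1 h γTubulinsh-MCF10A list and from 13864 to 14279 in the 2 h MCF10A list. The narrower peak of the 2 h γTubulinsh-MCF10A list stayed within MT-ND5. Its summit fell on base 13965, the same base as in the 2 h MCF10A list. In the 1 h γTubulinsh-MCF10A list the summit was at 14157, which is 192 bases further on and already 9 bases past the end of MT-ND5. The peak had the highest fold enrichment of all complex I peaks in each list, which was 2.14 in the 2 h MCF10A list, where it ranked 2 of the 16 mtDNA peaks. In γTubulinsh-MCF10A cells it was 1.93 at 1 h, rank 1 of 8, and 1.76 at 2 h, rank 1 of 5.

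MT-ND6, the member read from the opposite strand, had 208 of its 525 bases (39.6%) under peaks in the 1 h γTubulinsh-MCF10A list, 131 (25.0%) in the 2 h MCF10A list and 0 in the remaining lists. The peak over the MT-ND5 junction gave 129 of these bases in the first list and all 131 in the other. The other 79 bases belonged to a short peak of the 1 h γTubulinsh-MCF10A list, from 14595 to 14702, which reached into the neighbouring tRNA gene TRNE and had its summit at 14660. This peak had a length of 108 bp and a −log10 q of 3.34. Without it, as when peaks under 200 bp were left out, MT-ND6 had 129 bases under peaks in the 1 h γTubulinsh-MCF10A list and 131 in the 2 h MCF10A list, so that the order turned. In the 2 h MCF10A list, the 394 bases of MT-ND6 from 14280 onwards had no peak, and the 79 bases lay among them, so that they were listed in the shRNA cells and not in the parental ones.

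MT-ND1, whose product borders the quinone site, was covered over 710 of 956 bases (74.3%) in the 2 h MCF10A list. Its 3 peaks spanned positions 3170 to 3466, 3594 to 4134 and 4254 to 4576. Only the second lay wholly inside MT-ND1, with its summit at 3699. The first had its summit in the gene TRNL1, and the third in TRNQ, so both entered MT-ND1 from flanking tRNA genes. In the 2 h γTubulinsh-MCF10A list, 85 bases (8.89%) were covered at the start of MT-ND1, by a peak from 3215 to 3391 that also had its summit in TRNL1, at 3282. Neither 1 h list had a peak on MT-ND1.

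MT-ND2 lay mostly outside peaks in every list. Its only covered bases were the first 107 of 1042 (10.3%) in the 2 h MCF10A list, under the peak centred on TRNQ. The other 935 bases belonged to a stretch of 1600 bases without a peak, from 4577 to 6176. MT-ND3, a small gene of 346 bases, had 69 bases (19.9%) under a peak in the same list and 0 in the others. Its remaining 277 bases lay at the end of a stretch of 1999 bases from 8337 to 10335, the longest without a peak between the first and the last mtDNA peak of that list.

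A single peak from 10336 to 10806 in the 2 h MCF10A list covered the end of MT-ND3, the gene TRNR, the whole of MT-ND4L and the first 47 bases of MT-ND4. MT-ND4L and MT-ND4 are carried on 1 shared messenger RNA. The summit was at 10643 in MT-ND4L, the one complex I gene covered over its full length of 297 bases. This peak had the lowest fold enrichment (1.56) and −log10 q (5.67) of the 7 complex I peaks of the list, each rank 14 of the 16 mtDNA peaks. MT-ND4 was covered over 1057 of 1378 bases (76.7%), most of them under a peak from 11128 to 12311 with its summit at 11677, and a stretch of 321 bases was free of peaks. In the 1 h γTubulinsh-MCF10A list, 69 bases (5.01%) at the end of MT-ND4 lay under a peak from 12069 to 12266 whose summit was in the gene TRNH. At 2 h these cells had no peak on MT-ND3, MT-ND4L or MT-ND4.

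**Figure D2:**
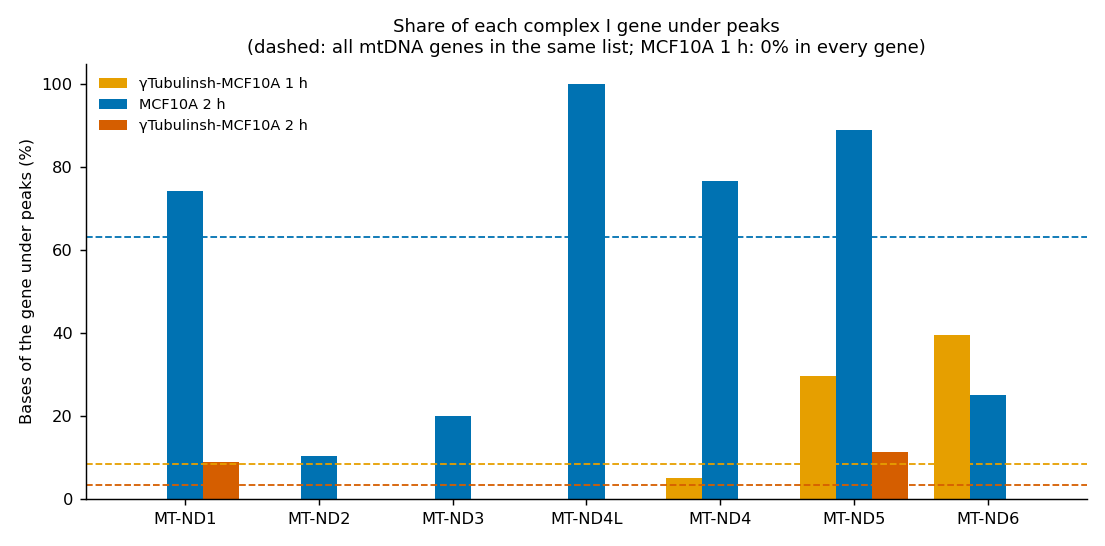
Percentage of the bases of each complex I gene under peaks in both γTubulinsh-MCF10A lists and the 2 h MCF10A list (bars, 1 list each and so no error bars), with the percentage for all mtDNA genes of the same list as a dashed line of the same colour. In the 2 h MCF10A list, MT-ND1, MT-ND4L, MT-ND4 and MT-ND5 lie above the line at 63.3% and MT-ND2, MT-ND3 and MT-ND6 below it.

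Base by base, 4086 complex I bases (64.4%) were under a peak in at least 1 list. Of them, 3295 were covered in 1 list, 586 in 2 and 205 in 3. All 290 bases of the 2 h γTubulinsh-MCF10A list lay under peaks of the 2 h MCF10A list, where they made up 7.29% of the covered complex I bases. Of the 816 bases of the 1 h γTubulinsh-MCF10A list, 706 (86.5%) were under peaks of the 2 h MCF10A list, where they made up 17.8%, and the other 110 were not. The shRNA lists shared 205 bases, 25.1% of those at 1 h and 70.7% of those at 2 h. The lists differ in length, and the overlaps were not tested.

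Other parts of mtDNA were covered to different extents. At 2 h in MCF10A cells, the genes of cytochrome oxidase were covered over 62.7% of their bases, the rRNA genes over 73.7%, the tRNA genes over 59.7%, the cytochrome b gene over 97.9% and the ATP synthase genes over 0%, next to 62.6% for complex I. In the 1 h γTubulinsh-MCF10A list, complex I stood at 12.9%, cytochrome b at 13.3%, tRNA genes at 15.2% and rRNA genes at 3.34%. In γTubulinsh-MCF10A cells at 2 h, rRNA genes stood at 5.33%, tRNA genes at 4.99%, complex I at 4.57% and cytochrome b at 0%. The cytochrome oxidase and ATP synthase genes had 0 bases under peaks in both lists of these cells. Bases of 1 molecule are not replicates, so the differences between groups were not tested. Of the mtDNA gene bases under peaks, complex I bases made up 40.9% in the 2 h MCF10A list, 63.7% in the 1 h γTubulinsh-MCF10A list and 58.1% in the same cells at 2 h, next to 41.3% of all mtDNA gene bases. A further 862, 865 and 336 bases under peaks lay outside genes in these lists. With those bases counted, complex I made up 37.5%, 38.0% and 34.7% of all mtDNA bases under peaks, so the higher shares in γTubulinsh-MCF10A cells held only within genes.

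**Figure D3:**
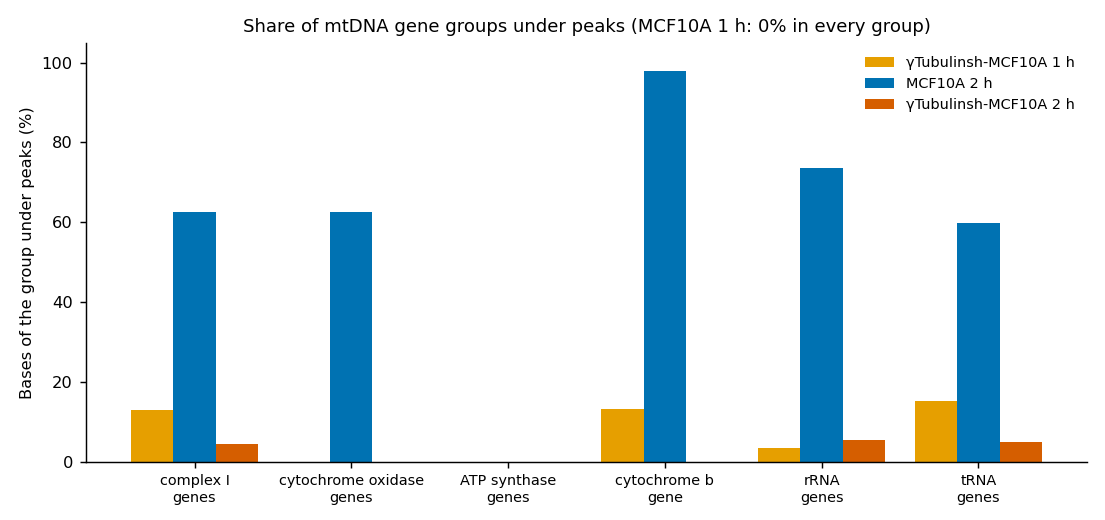
Percentage of the bases of 6 groups of mtDNA genes under peaks in 3 lists (bars, 1 list each and so no error bars). At 2 h in MCF10A cells complex I genes (62.6%) and cytochrome oxidase genes (62.7%) differ little, and the ATP synthase genes have no bar in any list.

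The complex I peaks, like the other mtDNA peaks, had low fold enrichments within their lists. The fold enrichment, the authors' ratio of ChIP to control signal at the summit, was between 1.56 and 2.14 for the 7 peaks of the 2 h MCF10A list, with a median of 1.74, whereas the median over all 1547 peaks was 3.77. Between 1.36% and 9.44% of the peaks of that list had a lower fold enrichment. It was between 1.52 and 1.93 for the 4 peaks of the 1 h γTubulinsh-MCF10A list (median of all 296 peaks 2.44), and 1.52 and 1.76 for the peaks at 2 h (median of all 84 peaks 3.02). The other mtDNA peaks had medians of 1.71 in the 2 h MCF10A list, against 1.74 for complex I, and of 1.504 and 1.548 in γTubulinsh-MCF10A cells at 1 h and 2 h, against 1.58 and 1.64. The −log10 q-values of the complex I peaks, the significance given to each peak by the peak caller, lay closer to those of their lists. They ran from 5.67 to 16.0 in the 2 h MCF10A list, against a median of 9.40 for that list, from 3.34 to 10.4 in the 1 h γTubulinsh-MCF10A list (median 5.67), and were 2.78 and 6.64 at 2 h (median 6.76). The highest of these complex I values, 16.0, belonged to the peak inside MT-ND1, followed by 15.9 at the MT-ND5 and MT-ND6 junction. Among the other mtDNA peaks, the range was 1.77 to 24.4 in the 2 h MCF10A list. In γTubulinsh-MCF10A cells it was 1.48 to 8.88 at 1 h and 2.79 to 4.79 at 2 h.

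The reads behind these ratios were recovered from the fold enrichment and the p-value by the formulas of the peak caller MACS2. The control background is the number of reads that MACS2 expects at the summit from the control, not a count of control reads there. At the 7 summits of the 2 h MCF10A list the ChIP pileup (reads covering 1 base) was between 190 and 229, and the control background between 88.1 and 144 reads. In γTubulinsh-MCF10A cells the pileup was between 165 and 200 at 1 h and was 196 and 202 at 2 h, and the control between 95.7 and 131 at 1 h and 111 and 132 at 2 h. This control was 8.27 to 13.5 times the median control of all peaks in the 2 h MCF10A list, 3.22 to 4.42 times in the 1 h γTubulinsh-MCF10A list, and 5.80 and 6.94 times in the same cells at 2 h. It was higher still at the other mtDNA peaks, whose median was 135 reads in the 2 h MCF10A list, next to 121 for complex I. In γTubulinsh-MCF10A cells the medians were 138 next to 116 at 1 h and 145 next to 122 at 2 h. A high control was thus shared by the mtDNA peaks, and was not particular to complex I. The labels describe the extracts as sonicated nuclei, and how mtDNA came to be in them was not tested.

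**Figure D4:**
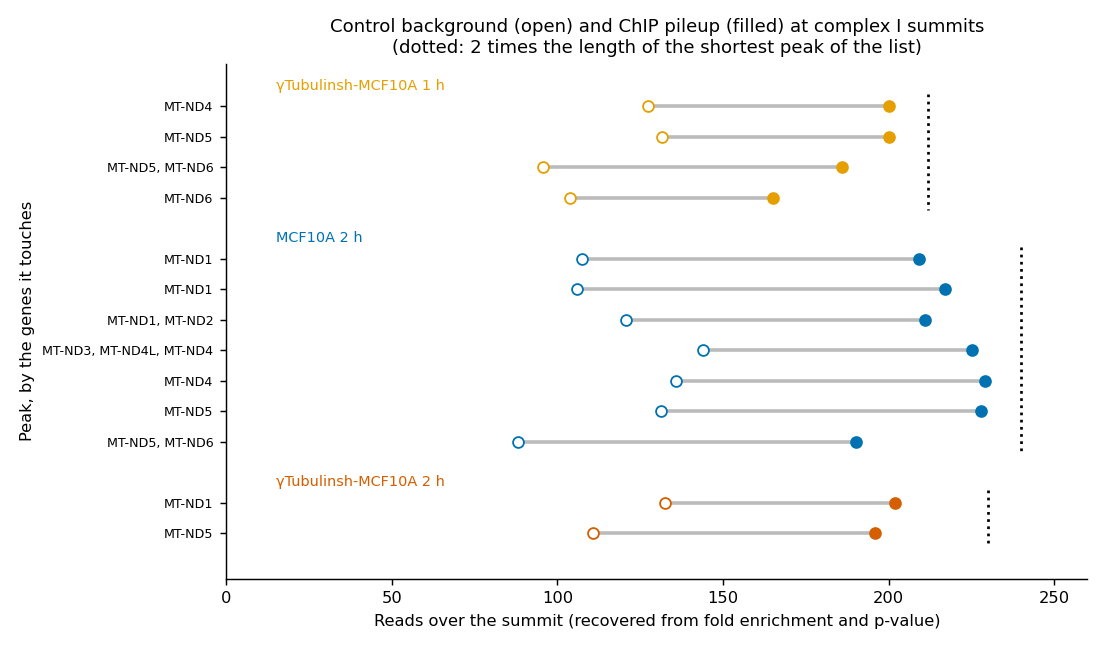
Control background (open circles, expected reads) and ChIP pileup (filled circles, reads) at the summits of the 13 complex I peaks, grouped by list and named by the genes they touch. Dotted lines mark 2 times the shortest peak length (212, 240 and 230), and every pileup lies between 77.8% and 95.4% of that value.

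A peak caller that keeps 1 read for each position and strand, as MACS2 does by default, cannot count more reads over a base than 2 times the fragment length. The shortest peak stood in for that length here, since MACS2 by default lists no peak shorter than a fragment. In the MCF10A lists, 2 times its length was 220 at 1 h and 240 at 2 h, and the largest pileups found there were 219 and 240. In the γTubulinsh-MCF10A lists it was 212 at 1 h and 230 at 2 h, and the largest were 211 and 227. The complex I pileups came to 79.2% to 95.4% of this value in the 2 h MCF10A list, 77.8% to 94.3% in the 1 h γTubulinsh-MCF10A list, and 85.2% and 87.8% at 2 h. They thus varied less than the control. The peak at the end of MT-ND5 had the lowest control of all mtDNA peaks in each of the 3 lists (88.1 reads in MCF10A cells, and 95.7 and 111 reads in γTubulinsh-MCF10A cells at 1 and 2 h), and in both 2 h lists it also had the lowest pileup (190 and 196 reads). Its high fold enrichment went with a low control and not with a high pileup, and what lay behind it was not tested. The −log10 q of this peak ranked 3 of the 16 mtDNA peaks in the 2 h MCF10A list, and 1 in both γTubulinsh-MCF10A lists. The setting for duplicate reads is not given in the sources used here, and the part of such a limit in the peaks was not tested.

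**Figure D5:**
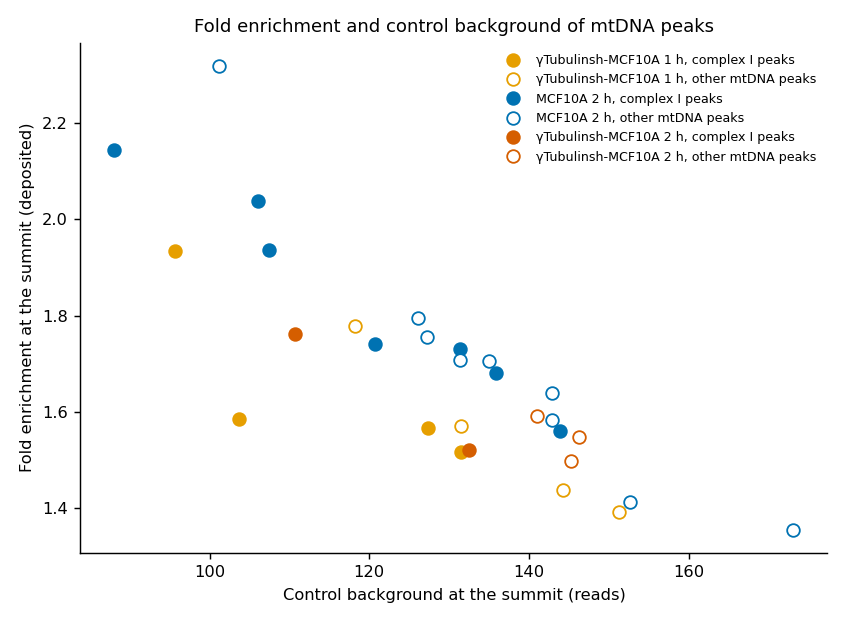
Deposited fold enrichment against the control background at the summit (expected reads) for the 29 mtDNA peaks, coloured by list and filled for the 13 complex I peaks. In the 2 h MCF10A and 1 h γTubulinsh-MCF10A lists, peaks with a lower control tend to have a higher fold enrichment, and the complex I peak with the lowest control, 88.1 reads, has a fold enrichment of 2.14. The fold enrichment is a ratio to the control, and the control was recovered from it, so this relation is partly arithmetic.

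Mapping kept only reads with a unique position, and the nuclear genome holds copies of mtDNA. RefSeq names between 25 (MT-ND3) and 45 (MT-ND5) nuclear pseudogenes for each of the 7 genes, among them neighbouring copies of MT-ND1 and MT-ND2 (MTND1P23 and MTND2P28) near the start of chromosome 1. Those positions are of another build and were not converted. A window near the start of chromosome 1 was chosen, with earlier results known, as a place where the 3 lists with mtDNA peaks shared peaks. In it, the 2 h MCF10A list had 10 peaks from 564438 to 569483 (hg19), with fold enrichments from 2.29 to 4.11. The shRNA cells had 4 peaks there at each time, and MCF10A cells had 0 at 1 h. That these are the same 3 lists that had complex I peaks follows from how the window was chosen. Whether these peaks lie on the named copies, and how reads were divided between mtDNA and nuclear copies, was not tested.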

How the data were processed

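Reads from γ-tubulin immunoprecipitates and whole cell extracts were mapped by the authors with Bowtie 1.0.0, keeping unique reads, with the Ensembl mitochondrial sequence added to hg19. Peaks came from MACS2 2.1.1, and the submitters' processing notes also name bedtools 2.17.0. The deposited lists hold positions, a fold enrichment (a ratio of ChIP to control at the summit, each plus 1), −log10 p-values and −log10 q-values, and a deposited score. In 100% of peaks this score was 10 times the −log10 q-value without its decimals. The methods name the differential tool of MACS2, whereas the lists have the layout of calls against a control and were read as such.

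Members were the 7 genes at fixed positions, identical for 7 of 7 in RefSeq (GRCh38.p14), from which the other 30 mtDNA genes were taken. The members and gene groups were chosen with earlier results of these data known. All 7 genes and every peak touching them were described, and other mtDNA genes were named where such a peak covered them. Positions are counted from 1. A base under several peaks was counted once. Pileup and control were solved from fold enrichment and p-value. All pileups were whole within 0.02, in γTubulinsh-MCF10A cells at 2 h after division of pileup and control by a scale of 0.9435, and the procedure was tested on simulated peaks. Read totals are not in the lists, so the depth is unknown. Alternatives were stricter scores or q-values, a minimum length, merging, windows around summits, other definitions of overlap and shifted gene positions. Values were computed in Python 3.11.15 with scipy 1.17.1, pandas 2.3.3 and numpy 2.4.6, and drawn with matplotlib 3.10.9. Sequences of mtDNA were not used here.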

Additional observations from a re-analysis of the deposited data

Results flagged for a closer look

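From 1 h to 2 h, peak coverage of the complex I genes went up in MCF10A cells and down in γTubulinsh-MCF10A cells. All mtDNA genes together moved the same way, from 0% to 63.3% of their bases in MCF10A cells and from 8.34% to 3.25% in γTubulinsh-MCF10A cells. So did the number of mtDNA peaks (0 to 16, and 8 to 5) and of all peaks (1035 to 1547, and 296 to 84). With a single list for each condition this difference was not tested. Bases under peaks rose by 3976 in MCF10A cells, from 0, and fell by 526 in γTubulinsh-MCF10A cells, from 816 to 290. There were 7 more complex I peaks at 2 h in MCF10A cells, from 0, whereas γTubulinsh-MCF10A cells went from 4 to 2. The same was seen in MT-ND4 (1057 bases more in MCF10A cells, while γTubulinsh-MCF10A cells went from 69 to 0), in MT-ND5 (1612 more, against a change from 539 to 205) and in MT-ND6 (131 more, against a change from 208 to 0). The 69 bases of MT-ND4 lay under a peak with its summit in TRNH. With scores of at least 85, or peaks of at least 200 bp, they were 0 and MT-ND4 showed no fall. The other 4 genes, MT-ND1, MT-ND2, MT-ND3 and MT-ND4L, did not fall in γTubulinsh-MCF10A cells. MT-ND1 went from 0 to 710 bases in MCF10A cells and from 0 to 85 in γTubulinsh-MCF10A cells, and MT-ND2, MT-ND3 and MT-ND4L had 0 bases in γTubulinsh-MCF10A cells at both times.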

How the results depend on the processing

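No paired analysis was possible because the replicate libraries of a condition share a pooled list. For the same reason no replicate could be left out. The 1 h MCF10A list had 0 complex I bases, peaks and summits under every alternative. Of the 51 other values, 35 stayed within 1.5 times the reported one. The values beyond that range are given next, as bases, peaks and genes with a summit. Scores of at least 85, the median of the pooled lists, left 445 bases, 1 peak and 1 gene in the 1 h γTubulinsh-MCF10A list and 0, 0 and 0 at 2 h. A −log10 q of at least 3 left 1 peak in the 2 h γTubulinsh-MCF10A list, as did a length of at least 200 bp, which left 2 peaks at 1 h. Merging within 1000 bp gave 1459 bases and 2 peaks in the 1 h γTubulinsh-MCF10A list and 2 peaks in the 2 h MCF10A list. Bases within 100 bp of a summit came to 1067 in the 2 h MCF10A list. With at least 50% of the peak inside the genes, the 2 h γTubulinsh-MCF10A list kept 1 peak. Any overlap in place of a summit gave 7 genes in the 2 h MCF10A list and 2 in the 2 h γTubulinsh-MCF10A list. The 2 h MCF10A list had the highest value of the 4 lists under all 6 alternatives for bases, all 5 for genes with a summit and 5 of 6 for peaks, since merging left 2 peaks in each of the 3 lists. For single genes, filters chosen after seeing the data were added. Scores of at least 85 left 0 bases in MT-ND3 and MT-ND4L at 2 h in MCF10A cells and in MT-ND5 at 2 h in γTubulinsh-MCF10A cells, and 0 bases then lay under peaks in all 3 lists. Each filter removed the 85 bases of MT-ND1 in γTubulinsh-MCF10A cells at 2 h. Scores of at least 85 and lengths of at least 200 bp also removed the 69 bases of MT-ND4 in these cells at 1 h. A −log10 q of at least 3 kept them. Gene positions moved by 1 base changed no value by more than 2 bases.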
